A study of Mus musculus with 8 samples.

Results

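The interferon-inducible gene clusters are 6 stretches of the mouse genome in which families of interferon-stimulated genes lie side by side. Their accessible chromatin was read from open chromatin regions (OCRs, the peaks of an ATAC-seq table) whose midpoint lay in 1 of 6 windows, given in GRCm39. The windows were 173.2 to 174.1 Mb of chromosome 1 (Ifi200 genes), 34.4 to 34.7 Mb of chromosome 19 (Ifit genes), 142.1 to 142.5 Mb and 104.9 to 105.6 Mb of chromosomes 3 and 5 (the Gbp genes), 120.7 to 121.1 Mb of chromosome 5 (Oas genes), and 97.1 to 97.6 Mb of chromosome 16 (Mx genes). They held 273 of the 185268 OCRs, namely 63 at the Ifi200 cluster, 46 at the Ifit cluster, 40 at the chromosome 3 Gbp cluster, 24 at the chromosome 5 Gbp cluster, 54 at the Oas cluster and 46 at the Mx cluster.

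ATAC-seq, in which a transposase cuts accessible DNA in nuclei, was applied to primary lung fibroblasts. Of 8 mice, 4 lacked cGAS (knockout, KO) and 4 were wild type (WT), with 2 labelled female and 2 labelled male in each genotype. The labels name no treatment for either genotype, and both were grown in 5% CO2 and 5% O2 in the same serum-containing medium. The question was how loss of cGAS changes accessibility in these cells. A library such as KO F1 or WT M2 is named for its genotype, labelled sex and number, and strain and age were not given in the sources used here.

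Interferon-stimulated genes are switched on when interferon bound to its receptor activates transcription factors that bind the interferon-stimulated response element (ISRE) in their promoters. cGAS lies upstream, since it senses DNA in the cytosol and signals through STING to interferon genes. Ifi200 genes encode HIN-domain proteins, several of which bind DNA, and include Aim2, the sensor of the inflammasome; Ifit proteins bind viral RNA; guanylate-binding proteins (Gbp) are GTPases that attack the vacuoles of intracellular pathogens; Oas proteins sense double-stranded RNA and activate RNase L; and Mx proteins are antiviral GTPases.

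What the cluster genes share at the sequence level is shown by stretches of their promoters, taken from RefSeq (GRCm38.p6) and written 5′ to 3′ on the strand of the gene, with each ISRE core in capitals. The core searched was GAAANNGAA on both strands, so it may also read TTCNNTTTC. Those chosen show the word repeated across the Ifi200 family, the close repeats of the core at Ifit genes, and the pair of nearly identical Oas1 promoters.
Ifi206, chr1:173491320-173491389, minus strand: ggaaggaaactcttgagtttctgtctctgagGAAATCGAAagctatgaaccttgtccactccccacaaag
Ifi208, chr1:173673576-173673645, plus strand: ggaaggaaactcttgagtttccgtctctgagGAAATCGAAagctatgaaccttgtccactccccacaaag
Ifi203, chr1:173942489-173942558, minus strand: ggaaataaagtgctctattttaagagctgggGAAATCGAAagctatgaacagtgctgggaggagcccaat
Ifi211, chr1:173913045-173913114, minus strand: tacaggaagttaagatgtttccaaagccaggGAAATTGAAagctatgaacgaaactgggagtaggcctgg
Ifit1, chr19:34640762-34640831, plus strand: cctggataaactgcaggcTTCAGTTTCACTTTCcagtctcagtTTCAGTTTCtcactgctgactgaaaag
Ifit3, chr19:34583370-34583439, plus strand: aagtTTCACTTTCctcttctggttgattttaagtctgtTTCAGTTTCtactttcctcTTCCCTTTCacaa
Gbp2, chr3:142620574-142620643, plus strand: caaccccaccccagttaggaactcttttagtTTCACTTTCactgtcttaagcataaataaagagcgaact
Gbp3, chr3:142559972-142560041, plus strand: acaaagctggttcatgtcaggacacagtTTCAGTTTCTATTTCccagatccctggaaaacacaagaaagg
Oas1a, chr5:120907504-120907573, minus strand: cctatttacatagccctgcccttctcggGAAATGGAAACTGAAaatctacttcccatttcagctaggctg
Oas1g, chr5:120887590-120887659, minus strand: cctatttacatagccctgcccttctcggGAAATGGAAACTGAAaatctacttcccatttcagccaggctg

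The RefSeq table held promoters, from 250 bases before to 50 after a start, for 29 cluster genes. The core was found in 23 of the 29 genes: 9 of 12 Ifi200 genes, 5 of 6 Ifit genes, 5 of 5 chromosome 3 Gbp genes and 4 of 6 Oas genes. Counted by promoter, 25 of 35 (71.4%) held it, against 8.56% of the 32851 promoters in the table. The word GAAATCGAA filled it in 7 of the 12 Ifi200 genes (Ifi203, Ifi206, Ifi207, Ifi208, Ifi213, Ifi214 and Mndal) and was found in 0.0913% of all promoters, on either strand. GAAATTGAA filled it in Ifi205 and Ifi211.

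Whole stretches were shared as well. The stretch of Ifi206 matched that of Ifi208 at 69 of 70 positions and that of Ifi203 at 40 of 70, while those of Mndal and Ifi203 were the same at all 70. Ifit3 and Ifit3b shared an identical run of 169 bases, and Oas1a and Oas1g one of 73 bases. Ifit1 and Ifit1bl2 are read from opposite strands of a single stretch that holds 3 cores. An AP-1 element (TGANTCA, which reads the same on both strands) was found in 10 of 35 promoters (28.6%, against 7.81% of all). Promoters of Ifi204, Mnda, Pyhin1, Gbp4, Gbp6, Gbp8, Gbp9, Gbp10, Gbp11, Oas1b, Oas1d, Oas1e, Oas2, Mx1 and Mx2 are not shown. Because the promoters are in GRCm38.p6 and the OCRs in GRCm39, no OCR was matched to a promoter or assigned to a gene.

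Values are given in CPM, the count of an OCR relative to the total over all OCRs of its library, scaled by TMM (trimmed mean of M-values), and levels are compared between OCRs only as CPM per kb. OCR totals ranged from 28 to 55.3 M counts, lowest in KO M2 and highest in KO M1. Of a library's table total, 64.6 to 76.4% lay in OCRs, lowest in KO M2, then WT F1 (65.1%), and highest in WT M1. The library labelled KO F2 held 24.9 CPM over 15 OCRs in the first 2 Mb of chromosome Y, against at most 0.0274 CPM in the other libraries labelled female and 31.6 to 43.5 CPM in those labelled male. It kept its label in every test. Values without it are given for the counts of OCRs higher in KO at the Ifi200 and chromosome 5 Gbp clusters, and not for every count. The Cgas gene and markers of fibroblasts and other cell types were not analysed here, since no annotation in the build of the table was used, so neither the knockout nor the cell type was checked. A library of bulk cells does not show whether more cells or more accessibility per cell gave a value.

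As wholes the clusters lay close in both genotypes, with the widest gap at the chromosome 5 Gbp cluster. No OCR of the 273 passed edgeR's quasi-likelihood test at an adjusted p of 0.05 (Benjamini-Hochberg over all OCRs), nor did any of the 185130 OCRs tested (0%), and the lowest adjusted p among the members was 0.322. At an unadjusted p below 0.05 there were 32 members (against 9.88% of all OCRs): 27 were higher in KO (9.89%, against 6.43% of all OCRs) and 5 were lower (1.83%, against 3.45%). All 4 KO libraries lay above all 4 WT libraries at 17 members (6.23%, against 3.47%) and below them at 2 (0.733%, against 2.51%). Of the 27 higher members, 11 lay at the Ifi200 cluster (17.5% of its OCRs) and 10 at the chromosome 5 Gbp cluster (41.7% of its OCRs).

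**Figure D1:**
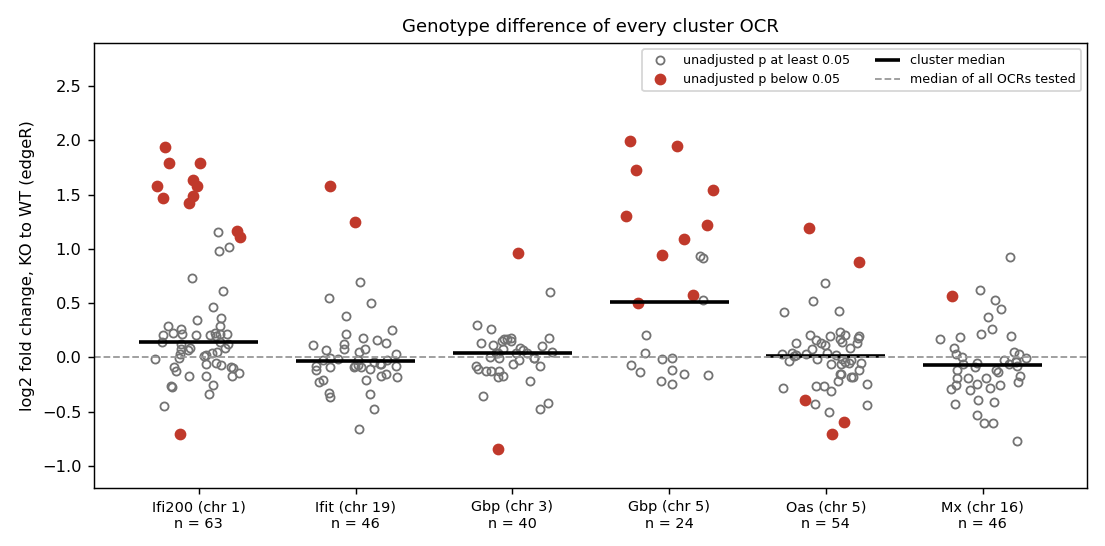
Each point is 1 of the 273 OCRs, placed by cluster (x axis) and by its log2 fold change from WT to KO in edgeR (y axis); filled points had an unadjusted p below 0.05, none passed after adjustment, and bars mark the cluster medians. The median was 0.51 at the chromosome 5 Gbp cluster and 0.15 at the Ifi200 cluster, and between -0.07 and 0.04 at the other 4 clusters.

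The median log2 fold change was 0.03 over the 273 members and 0.00 over all OCRs. By window it was 0.51 for the chromosome 5 Gbp cluster, 0.15 for Ifi200, 0.04 for the chromosome 3 Gbp cluster, 0.02 for Oas, -0.04 for Ifit and -0.07 for Mx. These medians are over all OCRs of a window, whichever gene they lie at. For 170 members (62.3%, against 60.5% of all OCRs) the 95% interval of the difference stayed below a 2-fold change in either direction. At the other members the interval reached a 2-fold change or lay beyond it. Members higher in KO lay mostly at weak OCRs: 22 of the 164 members below 5 CPM per kb were higher at an unadjusted p below 0.05, against 5 of the 109 members at or above that level. Over all OCRs these counts were 7929 of 101807 and 3970 of 83323. Members lower in KO at that p went the other way, with 1 below that level and 4 at or above it. Over all OCRs the lower counts were 3155 and 3233.

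Other models gave other counts. DESeq2 called 9 members higher in KO and 1 lower, where 1.35% and 0.253% of all OCRs were called, and gave no adjusted p for 24 members. With 1 surrogate variable (an estimated pattern of hidden variation) added, edgeR called 21 members higher and 1 lower, where 4.21% and 1.61% of all OCRs were called. The number called in either direction, 22 with all libraries, was 0 without WT F2 and 0 without WT M1, 9 without WT M2 and 36 without WT F1. The number called over all OCRs moved widely as well, from 10788 with all libraries to between 0 and 20497 with a library left out.

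**Figure D2:**
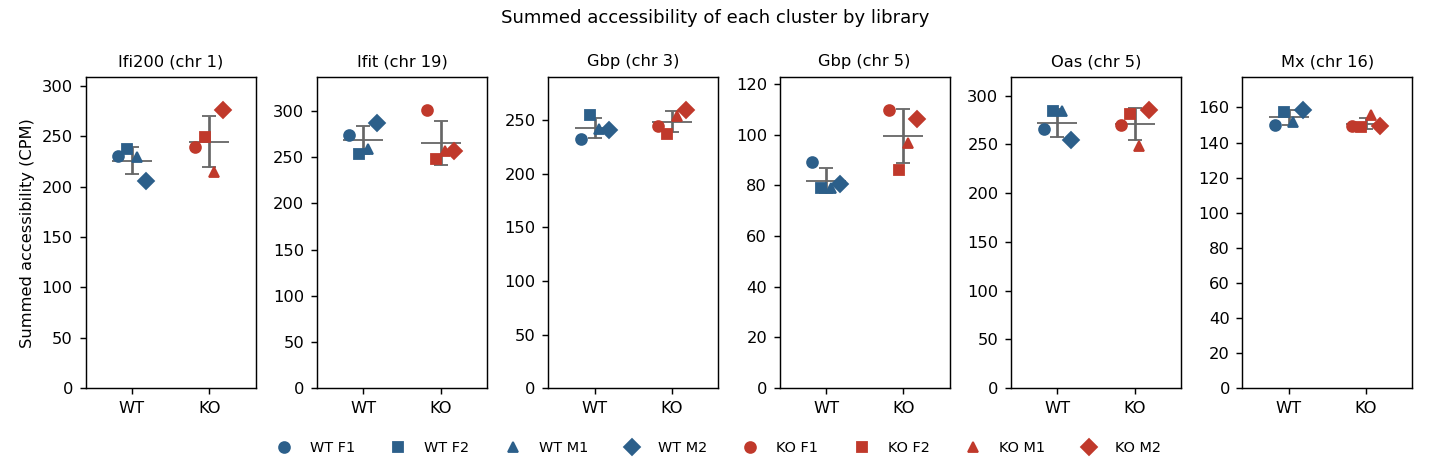
Each panel gives, for 1 cluster, the summed CPM of its OCRs in each library (points, y axis from 0) by genotype (x axis), with the mean and SD of 4 libraries. The genotypes overlapped in all 6 clusters. The ratios of KO to WT, taken from the mean log2 sums, ran from 0.977 at the Mx cluster to 1.21 at the chromosome 5 Gbp cluster.

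Summed over the OCRs of a cluster, accessibility at the Ifi200 window was 239, 249, 215 and 275 CPM in KO F1, F2, M1 and M2 and 230.0, 237, 229.6 and 206 CPM in WT F1, F2, M1 and M2. KO M2 was the highest and WT M2 the lowest, with KO M1 below 3 WT libraries. The means were 245 ± 25.1 and 226 ± 13.8 CPM (SD, n = 4 each), a ratio of 1.08. The sums gave no test of their own. Among 4234 tiles of 500 kb across the genome, all KO sums lay above all WT sums in 3.42% and below them in 1.46%, and none of the 6 clusters separated in this way.

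The Ifi200 cluster held 70 OCRs per Mb, close to the 69.6 of the genome as a whole. Its strongest OCR per length, chr1:173594116-173595389 (26.6 CPM per kb), had 32.5, 35.4, 32.0 and 38.1 CPM in KO F1, F2, M1 and M2 and 29.5, 37.5, 37.2 and 28.7 CPM in the WT libraries in the same order. The genotypes overlapped, with WT F2 and WT M1 close to the highest KO library. The log2 fold change was 0.05 ± 0.12 (SE), with an adjusted p of 0.966 in edgeR, and its 95% interval of -0.22 to 0.33 excluded a 1.5-fold change. The 3 OCRs with the most counts carried 34.3% of its counts.

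Low OCRs at the start of the Ifi200 window set the genotypes apart more. Between 173236607 and 173258239 lay a stretch of 21.6 kb with 8 OCRs. It was drawn around the largest group of OCRs higher in KO at an unadjusted p below 0.05, with gaps up to 20 kb. Its 7 OCRs at that p were thus picked by this rule, and the values describe the stretch without testing it. All 8 OCRs had a log2 fold change above 0 (0.98 to 1.94, median 1.61). At 5 all KO libraries exceeded all WT libraries, against 3.47% of all OCRs, which were not picked in this way. Summed over the stretch, accessibility was 8.67, 17.4, 7.53 and 22.7 CPM in KO F1, F2, M1 and M2 and 5.81, 6.44, 4.70 and 2.60 CPM in WT F1, F2, M1 and M2. All 4 KO libraries exceeded all 4 WT libraries, and KO M2 and the library labelled KO F2 were the highest and second highest at each of the 8 OCRs. The other 55 OCRs of the cluster had a median log2 fold change of 0.09, and 4 of them were higher at an unadjusted p below 0.05 (against 6.43% of all OCRs). By another rule, the longest row of neighbours with a fold change above 0, the cluster gave 14 OCRs elsewhere in the window. Their median log2 fold change was 0.22, and the ratio of the KO to the WT mean of their sum was 1.14.

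The OCR with the lowest p above 0 in the cluster was chr1:173257953-173258239, at the end of that stretch. It overlapped an ORR1G long terminal repeat and had 0.559, 0.751, 0.445 and 0.825 CPM in KO F1, F2, M1 and M2 and 0.274, 0.200, 0.101 and 0.173 CPM in WT F1, F2, M1 and M2. The genotypes did not overlap, at a mean of 17.1 counts per library. Its log2 fold change was 1.79 ± 0.40 (SE), a 3.47-fold difference with a 95% interval of 1.88 to 6.39, and the adjusted p in edgeR was 0.322.

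The strongest OCR of the stretch, chr1:173246421-173246941, overlapped no repeat. Accessibility there was 2.68, 5.76, 2.26 and 6.60 CPM in KO F1, F2, M1 and M2 and 1.53, 2.44, 1.54 and 0.50 CPM in WT F1, F2, M1 and M2. KO M1 lay below WT F2, so the genotypes overlapped by that pair. Here the log2 fold change was 1.58 ± 0.48 (SE), with an adjusted p of 0.327 in edgeR. Further on, chr1:173279155-173279625 had 1.93, 3.49, 1.53 and 3.91 CPM in the KO libraries and 1.42, 1.27, 0.729 and 0.616 CPM in the WT libraries, and again KO M2 and KO F2 were highest.

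In the other direction, chr1:173871122-173871683 had the lowest p below 0. It held 2.12, 2.86, 2.37 and 1.54 CPM in KO F1, F2, M1 and M2 and 3.23, 3.22, 4.13 and 3.92 CPM in WT F1, F2, M1 and M2. All KO libraries lay below all WT libraries, KO M2 lowest. On the log2 scale the fold change was -0.70 ± 0.24 (SE), and the adjusted p in edgeR was 0.366.

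Signal outside OCRs differed between libraries in the same window, as it did over the whole table. The share of the table total in OCRs was lowest in KO M2 (64.6%) and WT F1 (65.1%) and highest in WT M1 (76.4%). For repeats, CPM is relative to a library's whole table total, without TMM, so its scale differs from that of OCRs. Over 1058 repeats of the window that overlap no OCR, the summed signal was 77.3, 72.6, 54.0 and 109 CPM in KO F1, F2, M1 and M2 and 92.5, 67.3, 47.8 and 54.4 CPM in WT F1, F2, M1 and M2. KO M2 was highest there as well, and WT F1 second. The part of this signal in the results at weak OCRs was not tested. Without KO M2 the cluster median was 0.08 and 9 OCRs were higher at an unadjusted p below 0.05, and without the library labelled KO F2 they were 0.16 and 10. The share of all OCRs at that p in these fits is not given here, so these counts are not read as particular to the cluster.

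The chromosome 5 Gbp cluster was the poorest in OCRs, with 34.3 per Mb, and had the largest share of differences. Its listed genes are Gbp4, Gbp6, Gbp8, Gbp9, Gbp10 and Gbp11. Of its 24 OCRs, 10 were higher in KO at an unadjusted p below 0.05 (41.7%, against 6.43% of all OCRs), none was lower, and at 5 (20.8%, against 3.47%) all KO libraries exceeded all WT libraries. Summed accessibility was 109.5, 85.9, 96.6 and 106.2 CPM in KO F1, F2, M1 and M2 and 89.0, 78.8, 79.0 and 80.6 CPM in WT F1, F2, M1 and M2. WT F1 exceeded the library labelled KO F2, the only overlap. The means were 99.6 ± 10.6 and 81.8 ± 4.85 CPM (SD, n = 4 each).

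**Figure D3:**
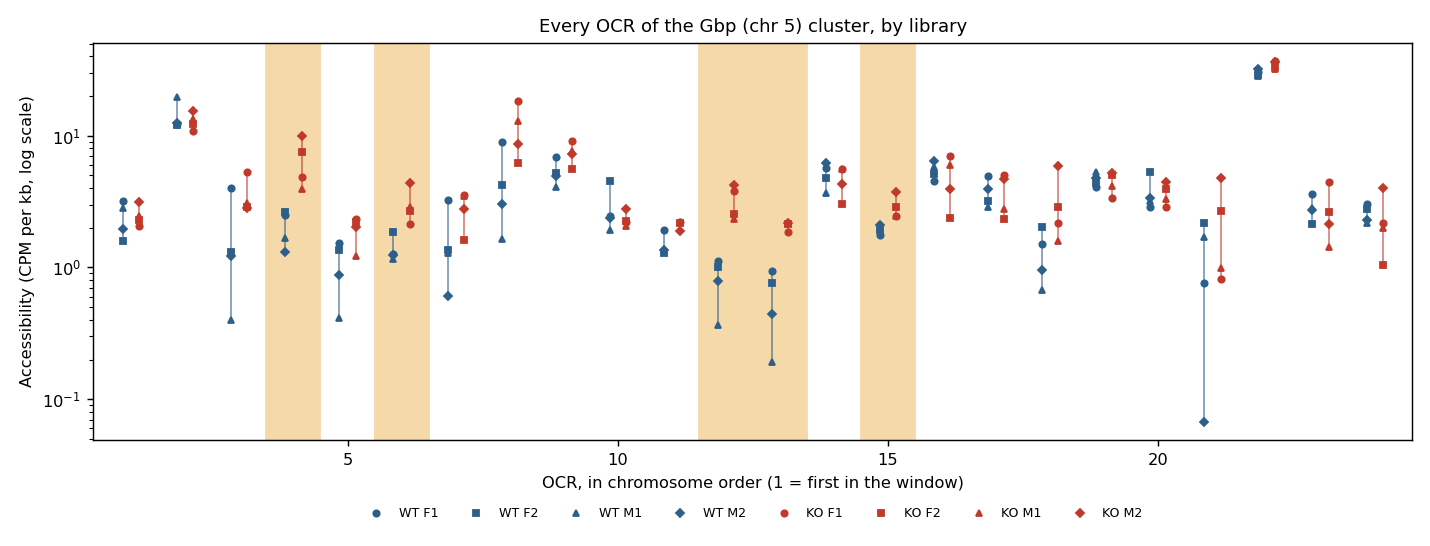
Each of the 24 OCRs of the chromosome 5 Gbp window is placed in chromosome order (x axis) with the CPM per kb of every library on a log scale (y axis), WT in blue and KO in red. Orange bands mark the 5 OCRs (20.8%, against 3.47% of all OCRs) at which all KO libraries lay above all WT libraries. At the strongest OCR, near the right edge, the log2 fold change was 0.21 ± 0.10 (SE), and KO M1 lay just below WT M2.

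The longest run of neighbouring OCRs with a log2 fold change above 0, a sign set by that rule, held 7 OCRs. They lay between 105102985 and 105258998, over 156 kb, with log2 fold changes of 0.50 to 1.73 (median 1.09). Of these OCRs, 6 had an unadjusted p below 0.05, against 6.43% of all OCRs higher in KO at that p, which were not picked by sign. Their sum was 35.8, 21.6, 27.6 and 28.3 CPM in KO F1, F2, M1 and M2 and 22.9, 14.6, 9.52 and 11.5 CPM in WT F1, F2, M1 and M2. WT F1 lay just above the library labelled KO F2, while the male libraries of the genotypes lay far apart. The means were 28.3 ± 5.81 and 14.6 ± 5.88 CPM (SD, n = 4 each), a ratio of 1.94. Drawn by the rule of the Ifi200 stretch, the group here held only 3 OCRs over 5.62 kb, with a median log2 fold change of 1.22.

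Within this run, chr5:105105946-105106651 had the lowest p of the cluster. It overlapped an MTD long terminal repeat and held 3.43, 5.33, 2.76 and 6.96 CPM in KO F1, F2, M1 and M2 and 1.75, 1.87, 1.17 and 0.923 CPM in WT F1, F2, M1 and M2. The genotypes did not overlap, with KO M2 and KO F2 highest. Its log2 fold change was 1.73 ± 0.35 (SE), a 3.31-fold difference with a 95% interval of 1.94 to 5.67. The adjusted p was 0.322 in edgeR, 0.00324 in DESeq2 and 0.00807 in edgeR with 1 surrogate variable, where the log2 fold change was 1.71.

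The strongest member of the run, chr5:105206432-105207148, had another order of libraries. It held 13.2, 4.48, 9.18 and 6.17 CPM in KO F1, F2, M1 and M2 and 6.47, 3.04, 1.17 and 2.15 CPM in WT F1, F2, M1 and M2. WT F1 exceeded 2 KO libraries, and KO F1 and KO M1 were the highest. For this OCR the log2 fold change was 1.54 ± 0.44 (SE), with an adjusted p of 0.322 in edgeR. It overlapped an MTE2b long terminal repeat.

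A pair of weak OCRs lay further on. At chr5:105293701-105293920 accessibility was 0.839, 0.557, 0.516 and 0.933 CPM in KO F1, F2, M1 and M2 and 0.247, 0.222, 0.0810 and 0.173 CPM in WT F1, F2, M1 and M2, and the genotypes did not overlap. At chr5:105301851-105302375 it was 0.979, 1.11, 1.14 and 1.15 CPM in the KO libraries and 0.493, 0.40, 0.101 and 0.231 CPM in the WT libraries, again with no overlap. Their log2 fold changes were 1.99 ± 0.42 and 1.94 ± 0.42 (SE), and the mean counts per library were 18.3 and 29.7.

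Of the 5 OCRs of the cluster at or above 5 CPM per kb, 2 were higher in KO at an unadjusted p below 0.05, and both lie in the run described above. At the highest per length, chr5:105563027-105563802 (32.2 CPM per kb), accessibility was 28.7, 25.8, 24.7 and 27.9 CPM in KO F1, F2, M1 and M2 and 23.5, 22.3, 21.99 and 24.9 CPM in WT F1, F2, M1 and M2. KO M1 lay just below WT M2, and the log2 fold change was 0.21 ± 0.10 (SE), with an adjusted p of 0.545 in edgeR. The lowest p below 0 was at chr5:105007331-105008385, with 11.5, 12.9, 14.1 and 16.4 CPM in the KO libraries and 12.9, 12.8, 20.6 and 13.3 CPM in the WT libraries. WT M1 was far above the rest of its genotype there, and the log2 fold change was -0.11 ± 0.15 (SE).

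Repeats were frequent in this window. Of the 24 OCRs, 20 (83.3%, against 62.0% of all OCRs) overlapped a repeat, 13 of them a long terminal repeat, and a read end in an OCR and a repeat gave a part of its count to each. The OCRs free of repeats were weak, with KO means of 0.711 to 1.88 CPM and WT means of 0.181 to 1.91 CPM. Over them the log2 ratio of the summed counts was 0.13, against 0.28 for all 24, and it rests on little signal. Over 1017 repeats outside OCRs the summed signal was 63.0, 60.7, 40.3 and 85.8 CPM in KO F1, F2, M1 and M2 and 76.7, 54.2, 37.7 and 43.8 CPM in WT F1, F2, M1 and M2, highest in KO M2 and WT F1. These CPM are again relative to the whole table total, without TMM. KO M2 and WT F1 also had the lowest shares of the table total in OCRs, 64.6% and 65.1%. The part of the signal outside OCRs in the difference was not tested.

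The number of OCRs higher at an unadjusted p below 0.05 was 10 without the library labelled KO F2, and 5 without KO M2 and 5 without WT M1. The median log2 fold change of the 24 OCRs was 0.32 without KO M2. It was 0.13 among OCRs with a mean of at least 1 CPM, of which 5 were higher at that p. Shares of all OCRs at that p in these fits are not given here, so the changes in count are not read as particular to the cluster.

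At the chromosome 3 Gbp cluster, which had 100 OCRs per Mb and an ISRE core in a promoter of each of its 5 genes, the genotypes were close. Summed accessibility was 244, 237, 253 and 259 CPM in KO F1, F2, M1 and M2 and 232, 255, 241 and 241 CPM in WT F1, F2, M1 and M2, a ratio of means of 1.02. Of 40 OCRs, 1 was higher and 1 lower at an unadjusted p below 0.05 (2.50% each, against 6.43% and 3.45% of all OCRs). At none did the genotypes separate (against 3.47% with KO above and 2.51% with KO below).

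Its strongest OCR per length, chr3:142405992-142407156 (30.3 CPM per kb), had 34.8, 36.7, 33.3 and 38.4 CPM in KO F1, F2, M1 and M2 and 31.8, 36.8, 35.6 and 35.4 CPM in the WT libraries. The difference on the log2 scale was 0.04 ± 0.09 (SE), with a 95% interval of -0.17 to 0.25. The lowest p above 0 belonged to chr3:142184116-142184511, where KO M2, at 4.02 CPM, stood above the other KO libraries (1.42 to 2.03 CPM) and WT libraries had 0.986 to 1.53 CPM. Its log2 fold change was 0.96 ± 0.35 (SE; adjusted p = 0.391 in edgeR). The lowest p below 0 belonged to chr3:142249188-142249745, with 0.513 to 1.19 CPM in KO and 1.00 to 1.92 CPM in WT and a log2 fold change of -0.84 ± 0.36 (SE; adjusted p = 0.478).

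The Ifit window was the densest, with 153 OCRs per Mb. Summed accessibility was 300.5, 248, 256 and 257 CPM in KO F1, F2, M1 and M2 and 274, 253, 259 and 287 CPM in WT F1, F2, M1 and M2, with KO F1 highest and KO F2 lowest. Of 46 OCRs, 2 (4.35%, against 6.43% of all OCRs) were higher at an unadjusted p below 0.05, and none was lower (against 3.45%). At both (4.35%, against 3.47%) all KO libraries exceeded all WT libraries. At the strongest per length, chr19:34527812-34528648 (28.2 CPM per kb), KO libraries had 21.7 to 25.3 CPM and WT libraries 20.7 to 26.7 CPM. The log2 fold change was -0.04 ± 0.12 (SE), with a 95% interval of -0.31 to 0.22.

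A single Ifit OCR stood out, chr19:34493112-34493539, which overlapped no repeat. It had 2.77, 4.14, 2.21 and 4.99 CPM in KO F1, F2, M1 and M2 and 1.32, 1.42, 1.15 and 0.846 CPM in WT F1, F2, M1 and M2. Every KO library exceeded every WT library, and KO M2 and KO F2 were the highest, as in the Ifi200 stretch. The log2 fold change was 1.58 ± 0.32 (SE), a 2.99-fold difference with a 95% interval of 1.84 to 4.86. The adjusted p was 0.322 in edgeR, 0.00408 in DESeq2 and 0.00807 in edgeR with 1 surrogate variable.

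In the same neighbourhood, chr19:34498783-34499144 had 1.44, 1.79, 0.997 and 2.98 CPM in the KO libraries and 0.986, 0.533, 0.850 and 0.635 CPM in the WT libraries. KO M1 and WT F1 nearly met, and KO M2 was again highest. The 3 OCRs between these did not follow them, and the median log2 fold change of all 5 was -0.02. The lowest p below 0 was at chr19:34631382-34631725, with 0.443 to 0.775 CPM in KO and 0.50 to 1.31 CPM in WT and a log2 fold change of -0.66 ± 0.36 (SE; adjusted p = 0.624 in edgeR).

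At the Oas cluster (Oas1 paralogs, Oas2 and Oas3), which had 135 OCRs per Mb, the sums were 270.2, 281, 249 and 285 CPM in KO F1, F2, M1 and M2 and 266, 284, 284 and 254 CPM in WT F1, F2, M1 and M2, with means of 271 and 272 CPM. Of 54 OCRs, 2 (3.70%, against 6.43% of all OCRs) were higher and 3 (5.56%, against 3.45%) lower at an unadjusted p below 0.05. The genotypes separated at 1 in each direction (1.85% each, against 3.47% with KO above and 2.51% with KO below). The strongest per length of all 273 members was here, chr5:120750283-120751882 (36.6 CPM per kb), with 54.9 to 69.99 CPM in KO and 49.2 to 62.8 CPM in WT. Its log2 fold change was 0.08 ± 0.11 (SE), with a 95% interval of -0.17 to 0.33.

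Near the start of the Oas window, neighbouring OCRs differed in sign. At chr5:120704785-120705654, which overlapped no repeat, accessibility was 6.06, 6.56, 7.40 and 5.96 CPM in KO F1, F2, M1 and M2 and 8.91, 9.53, 9.54 and 11.3 CPM in WT F1, F2, M1 and M2. All KO libraries lay below all WT libraries, at 365 counts per library on average. The log2 fold change was -0.59 ± 0.15 (SE), with a 95% interval of -0.91 to -0.27. The adjusted p was 0.322 in edgeR, 0.0194 in DESeq2 and 0.0154 in edgeR with 1 surrogate variable.

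Just before it, chr5:120701045-120701993 had 6.28 to 8.51 CPM in KO and 8.49 to 11.3 CPM in WT, with a log2 fold change of -0.39 ± 0.16 (SE). Just after it, chr5:120708357-120708706 had 1.44, 2.64, 0.908 and 2.40 CPM in KO F1, F2, M1 and M2 and 0.795, 1.07, 0.911 and 0.442 CPM in WT F1, F2, M1 and M2. KO F2 and KO M2 were highest there, and KO M1 lay among the WT libraries. Its log2 fold change was 1.19 ± 0.40 (SE; adjusted p = 0.347 in edgeR).

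The Mx window, with 92 OCRs per Mb, showed the narrowest spread. Its sums were 149, 149, 156 and 149 CPM in KO F1, F2, M1 and M2 and 149.9, 158, 152 and 158 CPM in WT F1, F2, M1 and M2, a ratio of means of 0.977. Of 46 OCRs, 1 (2.17%, against 6.43% of all OCRs) was higher at an unadjusted p below 0.05 and none was lower (against 3.45%). That OCR, chr16:97361568-97362624, had 5.15, 6.98, 7.85 and 7.89 CPM in the KO libraries and 3.97, 5.60, 4.58 and 4.48 CPM in the WT libraries. WT F2 exceeded KO F1, and the log2 fold change was 0.57 ± 0.19 (SE; adjusted p = 0.357 in edgeR).

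The strongest Mx OCR per length, chr16:97276628-97277252 (22.4 CPM per kb), had 14.3, 15.0, 12.5 and 11.98 CPM in KO F1, F2, M1 and M2 and 11.5, 14.2, 16.2 and 16.5 CPM in WT F1, F2, M1 and M2. Libraries labelled female were higher in KO and those labelled male lower, and the log2 fold change over both was -0.11 ± 0.15 (SE). The lowest p below 0 was at chr16:97108774-97109293, with 2.15 to 4.60 CPM in KO and 2.74 to 5.28 CPM in WT and a log2 fold change of -0.53 ± 0.30 (SE; adjusted p = 0.634 in edgeR).

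At the limits of the windows, the OCRs just inside lay 1.18 to 23.3 kb from the limit and those just outside 0.08 to 181 kb. The first OCR of the chromosome 3 Gbp window had 45.2 CPM in KO and 40.8 CPM in WT on average, and the OCR before it 4.67 and 3.45 CPM. The first of the Oas window had 7.53 and 9.91 CPM, and the OCR before it 19.4 and 19.97 CPM. At the other 10 limits the means of the OCR inside were 0.538 to 7.94 CPM in KO and 0.60 to 9.03 CPM in WT, and those of the OCR outside 0.763 to 17.6 CPM in KO and 0.623 to 17.4 CPM in WT.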

How the data were processed

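The deposited table holds estimated counts, made by the authors with featureCounts 2.0.3 over peaks and repeats together, per the file headers, with a read end in several regions shared equally among them. MACS2, Bowtie2, Trim Galore, Picard, bedtools and SAMtools, and the build GRCm39, are named in the submitters' processing notes; how peaks were merged across libraries, and whether ends were shifted for the transposase, is not given in the sources used here. Coordinates are those of the table.

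Counts over the 185268 OCRs were rounded and fitted with edgeR 4.0.16 (R 4.3.3; quasi-likelihood test, robust, TMM factors, filterByExpr, sex label as covariate), which kept 185130 OCRs and all 273 members. P-values were adjusted by Benjamini-Hochberg over all OCRs tested, with a threshold of 0.05. Fold changes, SEs and adjusted p-values in the text are from this fit unless DESeq2 1.42.0 or surrogate variables (sva 3.50.0) are named. The code was tested on simulated data.

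Members, gene lists and tests were chosen with earlier results of these data known. In each cluster the named OCRs are the strongest by CPM per kb and those with the lowest unadjusted p on each side of 0; no OCR passed the threshold. A stretch spans the largest group of OCRs higher in KO at an unadjusted p below 0.05, with gaps up to 20 kb. A run is the longest row of neighbours with fold changes on the same side of 0. Both rules use the fold changes themselves. The runs and stretches shown, and the OCRs named within or near them, were chosen after their values were seen. Each library is from a separate mouse per the series' design text, so n counts mice. Medians and sums over a cluster have no test. Alternatives were another test, 2 other scalings, a model that leaves out sex, another filter on low counts or none, a block for the replicate number, 1 surrogate variable, 2 surrogate variables (of which the second separated KO from WT), other member rules, and leaving out each library.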

Additional observations from a re-analysis of the deposited data

Results flagged for a closer look

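A library stood far from the other 3 of its genotype in 2 of 48 groups looked at, where chance alone gives about 1 in 20. At the Mx cluster the summed accessibility of KO M1 was 155.8 CPM, and the other KO libraries had 148.9 to 149.5 CPM. At chr5:105007331-105008385, in the chromosome 5 Gbp window, WT M1 had 20.57 CPM and the other WT libraries 12.75 to 13.25 CPM. At chr16:97276628-97277252, the strongest Mx OCR per length, the KO mean was above the WT mean by 1.803 CPM in libraries labelled female, while in those labelled male the KO mean minus the WT mean was -4.095 CPM. That difference between the sexes was not tested, and the female mean holds the library labelled KO F2, which has chromosome Y signal.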

How the results depend on the processing

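The count of members past the threshold was 0 under both other scalings, both other count filters, no sex covariate, the replicate block and each library left out. DESeq2 gave 10 members and 2739 OCRs in all, and 1 surrogate variable gave 22 and 10788. With a library left out as well, a combination chosen after seeing the data, these were 0 to 36 members and 0 to 20497 OCRs, and the cause was not tested. The OCRs higher in KO at an unadjusted p below 0.05, also counted after seeing the data, numbered 5 at the chromosome 5 Gbp cluster and 7 at the Ifi200 cluster with a minimum mean of 1 CPM, where fewer OCRs were tested. With each library left out they numbered 5 to 10 and 9 to 15, and 7 to 14 and 11 to 17 with 1 surrogate variable. Shares of all OCRs at that p in these fits are not given here. The chromosome 5 Gbp median log2 fold change moved to 0.13 with the minimum of 1 CPM. With each library left out, the chromosome 5 Gbp median was 0.32 to 0.59 (0.35 to 0.56 with 1 surrogate variable) and the Mx median -0.12 to -0.053 (-0.12 to -0.065). Log2 ratios of summed counts moved to 0.13 at the chromosome 5 Gbp cluster over OCRs free of repeats, and from -0.03 at the Mx cluster to 0.061 over such OCRs, 0.010 with windows widened by 100 kb and -0.070 with the whole table as library size. For the fit with 2 surrogate variables, only 1 was estimated from the data. The second separated the genotypes (0.16 to 0.51 in KO, -0.56 to 0.04 in WT), so it cannot be told apart from genotype. Whether it held the genotype difference or other variation was not tested. In that fit no member was called, 0 OCRs of the chromosome 5 Gbp and Ifi200 clusters were higher at an unadjusted p below 0.05, and medians were -0.11 (Ifi200), -0.0084 (chromosome 5 Gbp) and -0.23 (Oas). Its log2 fold change changed sign to -0.019 at chr1:173594116-173595389, 0.033 at chr1:173871122-173871683, 0.037 at chr19:34527812-34528648, 0.46 at chr16:97276628-97277252 and 0.63 at chr16:97108774-97109293. With a library left out, log2 fold changes near 0 turned sign: they ran from -0.024 to 0.13 at chr1:173594116-173595389 (below 0 without KO M2, WT F1 or WT M2), -0.12 to 0.019 at chr19:34527812-34528648 (above 0 without WT F2 or WT M1), -0.012 to 0.082 at chr3:142405992-142407156 (below 0 without KO M2 or WT F1), -0.22 to 0.035 at chr5:105007331-105008385 (above 0 without WT M1) and -0.0078 to 0.14 at chr5:120750283-120751882 (below 0 without KO M2). Replicate numbers did not pair the mice: same-numbered KO and WT libraries had correlations of 0.59, 0.61, -0.29 and -0.45 in their deviations, and 2 of 4 KO libraries correlated best with their own number. The replicate block gave 0 members and 0 OCRs in all past the threshold, 11 and 12 OCRs higher at an unadjusted p below 0.05 at the chromosome 5 Gbp and Ifi200 clusters, and a chromosome 5 Gbp median of 0.51. At 28 to 55.3 M OCR counts, weak members have few counts, so their fold changes carry wide intervals.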
